A study of Mus musculus with 6 samples.

Results

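The 10 genes Meis1, Hlf, Mecom, Gata2, Runx1, Tal1, Lmo2, Gfi1b, Erg and Fli1, transcription factors and cofactors of blood stem cells, were described across 6 bulk RNA-seq libraries. They were chosen by name and found through their gene identifiers in the GENCODE annotation of GRCm38, and all 10 were present among the 49315 genes counted. The libraries came from WT (C57BL/6) mice and from ING4-/- mice, which are deficient for ING4, a chromatin-binding tumour suppressor. The cells of each genotype were 3 sorted populations of LSK cells (lineage-negative, Sca1-positive and cKit-positive) without CD48 on their surface, taken from marrow in which 8 to 10 animals had been combined. Of these, LT-HSCs carried CD150 but not CD34, ST-HSCs carried both markers and MPPs carried CD34 but not CD150. No mouse was treated, and the labels give no age. Each population had 1 library per genotype, so the 3 populations of a genotype stood in for replicates, and p-values measure the spread between these libraries only.

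Stem cell transcription factors act as a densely connected network. Tal1, a basic helix-loop-helix factor, binds E-box motifs and is bridged by Lmo2, a LIM-domain protein without DNA binding of its own, to GATA factors such as Gata2. Runx1 and the ETS factors Erg and Fli1 bind many of the same enhancers, Gfi1b is a zinc finger repressor, and Meis1, Hlf and Mecom are known for maintaining stem cell self-renewal.

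One promoter each of Tal1, Gfi1b and Mecom, the one nearest to the gene's annotated start, is shown because Tal1 and Gfi1b were among the genes that differed by genotype and Mecom was the gene that differed most between populations in ING4-/- mice. Each sequence runs from 250 bases before to 50 bases after a RefSeq transcription start (GRCm38.p6), 5′ to 3′ on the gene's strand, with capitals marking the GATA motifs AGATAA and AGATAG with their forms TGATAA and TGATAG, and the E-boxes CAGCTG and CAGATG with its reverse complement CATCTG, searched on both strands. The first lies at chr4:115056176-115056475 on the plus strand, the second at chr2:28621933-28622232 on the minus strand and the third at chr3:30509710-30510009 on the minus strand.
Tal1: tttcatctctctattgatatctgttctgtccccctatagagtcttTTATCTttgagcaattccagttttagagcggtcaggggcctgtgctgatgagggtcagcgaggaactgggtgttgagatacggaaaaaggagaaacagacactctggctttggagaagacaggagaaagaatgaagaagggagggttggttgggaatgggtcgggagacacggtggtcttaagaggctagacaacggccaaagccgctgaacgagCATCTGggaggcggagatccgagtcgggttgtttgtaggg
Gfi1b: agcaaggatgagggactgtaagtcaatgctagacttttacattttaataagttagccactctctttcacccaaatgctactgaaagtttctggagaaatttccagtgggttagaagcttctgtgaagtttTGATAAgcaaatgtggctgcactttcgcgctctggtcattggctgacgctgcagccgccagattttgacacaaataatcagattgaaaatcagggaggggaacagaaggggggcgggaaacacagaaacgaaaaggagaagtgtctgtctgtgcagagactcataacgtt
Mecom: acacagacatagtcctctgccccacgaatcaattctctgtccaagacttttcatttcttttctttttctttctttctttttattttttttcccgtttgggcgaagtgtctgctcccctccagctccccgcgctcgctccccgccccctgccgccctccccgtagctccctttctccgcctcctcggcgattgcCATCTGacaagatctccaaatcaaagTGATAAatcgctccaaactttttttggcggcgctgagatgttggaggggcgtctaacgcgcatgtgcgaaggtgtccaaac
This Tal1 promoter held a GATA motif at position -205 and an E-box at position 10 from the start site. The Gfi1b promoter held a GATA motif at -120, and this Mecom promoter a GATA motif at -31 and an E-box at -57. A second Tal1 promoter, with its start 1385 bases downstream, held none of the motifs searched, and a second Mecom promoter held a GATA motif at -27 and no E-box. RefSeq promoters were matched for 8 of the 10 genes, 14 promoters in all. A GATA motif was found in 5 of these 14, beside 29.8% of 32851 promoters of the same length genome-wide. Neither motif overlapped the other in these 3 sequences. An ETS motif, CCGGAA or in its other form CAGGAA, was found in 5 of 14, beside 41.4% of all promoters, and an E-box in 3 of 14, beside 30.6%. A match describes letters in the window and not a bound site.

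Depth and background differed between the genotypes. Total counts were 7839326 to 9363442 in WT libraries and 35596876 to 39192588 in ING4-/- libraries. Between 36082 and 41763 genes had a count in WT, compared with 14680 to 16188 in ING4-/-. Olfactory and vomeronasal receptor genes, which marrow cells should not express, had 18.1 to 22.7 counts per kb of exon in WT and 0.0386 to 0.0851 in ING4-/-. The targeted gene Ing4 was counted 247 times in WT LT-HSCs, 162 times in ST-HSCs and 247 times in MPPs, against 0, 24 and 76 times in the same populations of ING4-/- mice, and the receptor density alone gave 119, 121 and 96.2 counts for its exon length in the WT libraries. Ing4 shares 34.9% of its exon bases with a gene model on the same strand, so part of its reads could have been counted elsewhere or not at all. Of the sort markers, Kit and Ly6a, which encode cKit and Sca1, were detected in all 6 libraries, at 378 to 1000 CPM and 33.5 to 401 CPM. Cd34 was at 109, 237 and 714 CPM in the WT LT-HSC, ST-HSC and MPP libraries and at 304, 715 and 1559 CPM in ING4-/-, while Slamf1, which encodes CD150, was at 104, 81.3 and 33.0 CPM in WT and at 111, 28.1 and 8.81 CPM in ING4-/-. Cd48, which all gates excluded, was at 5.27, 16.6 and 36.9 CPM in WT and at 0, 34.1 and 127 CPM in ING4-/-. Background was also subtracted from each count, at the library's receptor density times the exon length, and values after subtraction are given where they change a result.

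All 10 genes reached 10 counts in all 6 libraries and passed the filter on low counts. Levels below are CPM per kb of exon after TMM normalization, which allows genes to be compared with one another, and each fold change is the log2 difference of ING4-/- against WT over the 3 populations from edgeR's quasi-likelihood test. Of the 10 genes, 4 were higher in ING4-/- at an adjusted p under 0.05 and a log2 change over 1, namely Tal1, Hlf, Lmo2 and Gfi1b, and none was lower by that rule. Over all 31001 genes tested, 7.98% were called higher and 56.7% lower. The median log2 change was 0.62 over the 10 genes and -6.85 over all genes tested, but 0.52 over the 9673 well-counted genes, those that reached 10 counts in all 6 libraries, so the middle of the well-counted genes was itself shifted upwards. When only those genes were fitted, 8.30% were called higher and 9.68% lower, the median of the 10 genes was 0.12 and that of all the genes 0.02, and Tal1 was the gene of the 10 still called. After background subtraction 5.60% of 19744 genes were called higher and 38.7% lower, with 1 of the 10 higher (Tal1) and 1 lower (Gata2). DESeq2 called 2 of the 10 higher, Tal1 and Hlf, beside 1518 genes higher and 18548 lower of 31001. With a trend on exon length removed edgeR called 4 of the 10 higher, beside 643 genes higher and 17818 lower of 31001. The 4 were Tal1, Hlf, Meis1 and Runx1, in place of Lmo2 and Gfi1b.

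**Figure D1:**
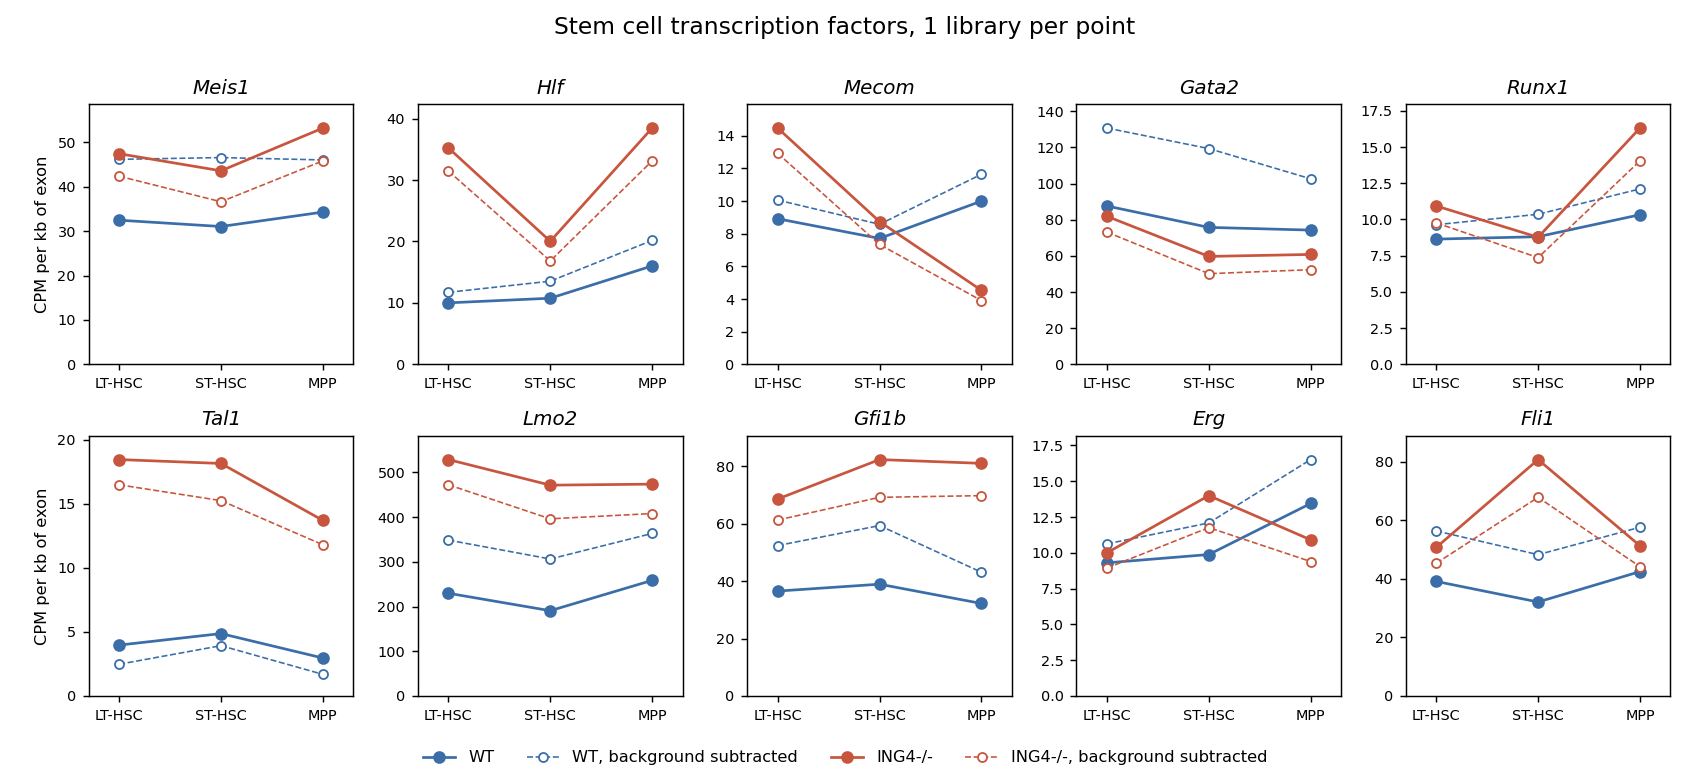
Level of each of the 10 genes in CPM per kb of exon (vertical axes from 0) by population and genotype, with 1 point per library, before and after background subtraction with new scaling. Tal1 lies between 2.96 and 4.87 in WT and between 13.7 and 18.5 in ING4-/- before subtraction, whereas Mecom lies at 14.5 in LT-HSCs and at 4.54 in MPPs of ING4-/- mice.

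In WT the mean level per kb was highest for Lmo2 (226 ± 34.1, SD, n = 3 libraries) and Gata2 (79.2 ± 7.30), followed by Fli1 (37.9 ± 5.30), Gfi1b (35.9 ± 3.41) and Meis1 (32.6 ± 1.63), whose ranges overlapped. Hlf (12.3 ± 3.28), Erg (10.9 ± 2.25), Runx1 (9.26 ± 0.93) and Mecom (8.87 ± 1.14) also overlapped from one to the next, and Tal1 (3.93 ± 0.96) lay below them without overlap. In ING4-/- Lmo2 (491 ± 32.4) stood apart again, and Gfi1b (77.4 ± 7.59), Gata2 (67.5 ± 12.5), Fli1 (60.9 ± 17.2) and Meis1 (48.1 ± 4.85) overlapped from one to the next. Hlf (31.2 ± 9.84) overlapped neither Meis1 nor Tal1 (16.8 ± 2.66), which overlapped Runx1 (12.0 ± 3.88), and Runx1 overlapped Erg (11.6 ± 2.09) and Mecom (9.25 ± 4.99). Tal1 was the last of the 10 genes in the WT order, whereas Runx1, Erg and Mecom had lower means than Tal1 in ING4-/-.

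The 3 genes of the Tal1 complex are given first (positions on GRCm38). Tal1 (chr4:115056426-115071755, plus strand) was at 3.97, 4.87 and 2.96 CPM per kb in the WT LT-HSC, ST-HSC and MPP libraries and at 18.5, 18.2 and 13.7 in the same ING4-/- populations. The groups did not overlap, and Tal1 was the lowest of the 10 genes in every WT library. The log2 change was 2.09 ± 0.34 (SE, adjusted p = 0.0011 in edgeR). Tal1 rested on 165, 198 and 132 counts in WT, beside 98.0, 99.5 and 79.2 counts that the receptor density gives for its exon length, and on 2531, 2515 and 2037 counts in ING4-/-. With background subtracted its level was 2.47, 3.92 and 1.68 in WT and 16.5, 15.3 and 11.8 in ING4-/-, and the log2 change was 2.43 ± 0.48 (adjusted p = 0.0041 in edgeR). Across the 20 alternative settings Tal1 was called higher in all 20, with log2 changes of 1.54 to 2.69.

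Lmo2 (chr2:103957986-103981878, plus strand) had the highest level of the 10 genes in every library. It was at 229.7, 191 and 259 CPM per kb in the WT LT-HSC, ST-HSC and MPP libraries and at 529, 472 and 474 in ING4-/-. Every ING4-/- library was above every WT library, with a log2 change of 1.12 ± 0.16 (adjusted p = 0.00073 in edgeR). The change was 0.62 (adjusted p = 0.023 in edgeR) among the well-counted genes and 0.33 (adjusted p = 0.098 in edgeR) after background subtraction, so it did not pass the fold rule in either. Without the WT ST-HSC library it was 0.97. Across the 20 alternative settings it was 0.17 to 1.71, and Lmo2 was called in 9 of them.

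Gata2 (chr6:88193891-88207032, plus strand), the zinc finger partner in the complex, was at 87.6, 75.7 and 74.2 CPM per kb in the WT populations and at 81.9, 59.7 and 60.8 in the ING4-/- populations. The groups overlapped, and the log2 change of -0.23 ± 0.18 did not pass (adjusted p = 0.31 in edgeR). Among the well-counted genes the log2 change was -0.74 (adjusted p = 0.032 in edgeR). After background subtraction its level was 131, 119 and 103 in WT and 73.1, 50.2 and 52.3 in ING4-/-, without overlap, and Gata2 was lower at -1.01 ± 0.20 (adjusted p = 0.0041 in edgeR). These WT levels lay above the unsubtracted ones because the libraries were scaled anew after subtraction. Relative to the median of the well-counted genes Gata2 was lower in all 20 alternatives, by log2 values of -1.25 to -0.55, although with upper-quartile normalization its own log2 change was 0.36. The ratio of the Gata2 level to the Tal1 level was 15.6 to 25.1 in WT libraries and 3.29 to 4.43 in ING4-/- libraries, and this ratio does not depend on the normalization between libraries. After background subtraction it was 30.4 to 61.0 in WT and 3.29 to 4.43 in ING4-/-.

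Gfi1b (chr2:28609450-28621982, minus strand), a repressor that works with the histone demethylase Lsd1, was at 36.5, 38.9 and 32.2 CPM per kb in the WT LT-HSC, ST-HSC and MPP libraries and at 68.7, 82.4 and 81.1 in ING4-/-. The groups did not overlap, and the log2 change was 1.11 ± 0.21 (adjusted p = 0.0022 in edgeR). It was 0.59 (adjusted p = 0.11 in edgeR) among the well-counted genes, 0.37 (adjusted p = 0.23 in edgeR) after background subtraction and 0.90 without the WT MPP library. Across the 20 alternative settings it was 0.050 to 1.70, and Gfi1b was called in 9 of them. Erythroid and megakaryocyte lineages also use Tal1 and Gfi1b. Of 9 erythroid markers 4 were called higher and 1 lower, and their summed level was 73.7 to 126 CPM in WT and 116 to 233 in ING4-/-, the 4 higher being the globin genes Hba-a1, Hba-a2, Hbb-bs and Hbb-bt at log2 changes of 3.75 to 5.68, and the lower one Alas2, at 0 counts in all 3 ING4-/- libraries. After background subtraction the 4 globin genes were called higher and none of 8 was lower, with Alas2 no longer tested. Of 6 megakaryocyte markers 2 were called higher, and 1 after background subtraction, with a summed level before subtraction of 258 to 399 CPM in WT and 281 to 1154 in ING4-/-. The part of these cells in the Tal1 and Gfi1b levels was not tested, and in bulk libraries fewer cells of a type and less RNA per cell cannot be told apart.

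Among the self-renewal factors, Hlf (chr11:90336536-90390895, minus strand), a PAR bZIP protein, was at 10.0, 10.8 and 16.0 CPM per kb in the WT LT-HSC, ST-HSC and MPP libraries and at 35.2, 20.0 and 38.5 in ING4-/-. The lowest ING4-/- library, ST-HSCs, was above the highest WT library, MPPs, but after background subtraction it was at 16.8 against 20.2 and the groups overlapped. The log2 change was 1.35 ± 0.32 (adjusted p = 0.0075 in edgeR), and 0.84 ± 0.34 (adjusted p = 0.085 in edgeR) after background subtraction. Hlf was called in 15 of the 20 alternatives and was positive in all 20.

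Meis1 (chr11:18879817-19018985, minus strand), a homeobox cofactor of HOX proteins, was at 32.5, 31.1 and 34.3 CPM per kb in WT and at 47.5, 43.6 and 53.2 in ING4-/-, in the order LT-HSCs, ST-HSCs and MPPs. The groups did not overlap, and the log2 change of 0.56 ± 0.15 (adjusted p = 0.012 in edgeR) was below the fold rule and close to the shift of the well-counted genes. After background subtraction the order was turned, with 46.1 to 46.6 in WT and 36.6 to 45.8 in ING4-/- and a log2 change of -0.15 ± 0.14 (adjusted p = 0.45 in edgeR). Of the Meis1 exon bases 9.77% are shared with a gene model on the same strand, so part of its reads could have been counted elsewhere or not at all.

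Mecom (chr3:29951296-30548008, minus strand) encodes the zinc finger protein Evi1 and its longer PR-domain form. It was at 8.92, 7.71 and 10.0 CPM per kb in the WT LT-HSC, ST-HSC and MPP libraries and at 14.5, 8.74 and 4.54 in ING4-/-. WT levels stayed close together while ING4-/- levels were lower in each successive population, so that the ING4-/- library was the highest of the 6 in LT-HSCs and the lowest of the 6 in MPPs. Set against WT of the same population, the ING4-/- level differed by a log2 ratio of 0.70 at the LT-HSC, 0.18 at the ST-HSC and -1.14 at the MPP stage, with counting errors of 0.05 each (counting error only). Over the 3 populations the log2 change was 0.06 ± 0.41 (adjusted p = 0.91 in edgeR). The log2 ratio of LT-HSCs to MPPs was 1.67 in ING4-/- and -0.16 in WT, and 1.72 and -0.21 after background subtraction. With 1 library per genotype and population, the difference between these ratios was not tested. Endothelial cells also express Mecom, and of 8 endothelial markers none was called higher and 1 was called lower between genotypes. Their summed level was 719 CPM in ING4-/- LT-HSCs, 235 to 270 in the other ING4-/- libraries and 302 to 410 in WT, and Tie1 gave 463 of the 719 CPM. In the same library Plvap was at 71.1 and Cldn5 at 33.9 CPM, against 3.26 and 8.95 CPM in WT LT-HSCs. Tie1 was at 225 CPM in WT LT-HSCs, and Pecam1 and Emcn were also higher in ING4-/- LT-HSCs than there. Lower than in WT LT-HSCs were Kdr (11.5 against 64.0 CPM), Cdh5 (1.25 against 11.9 CPM) and Sox17 (0 against 86 counts). The part of endothelial cells in the Mecom level was not tested.

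**Figure D2:**
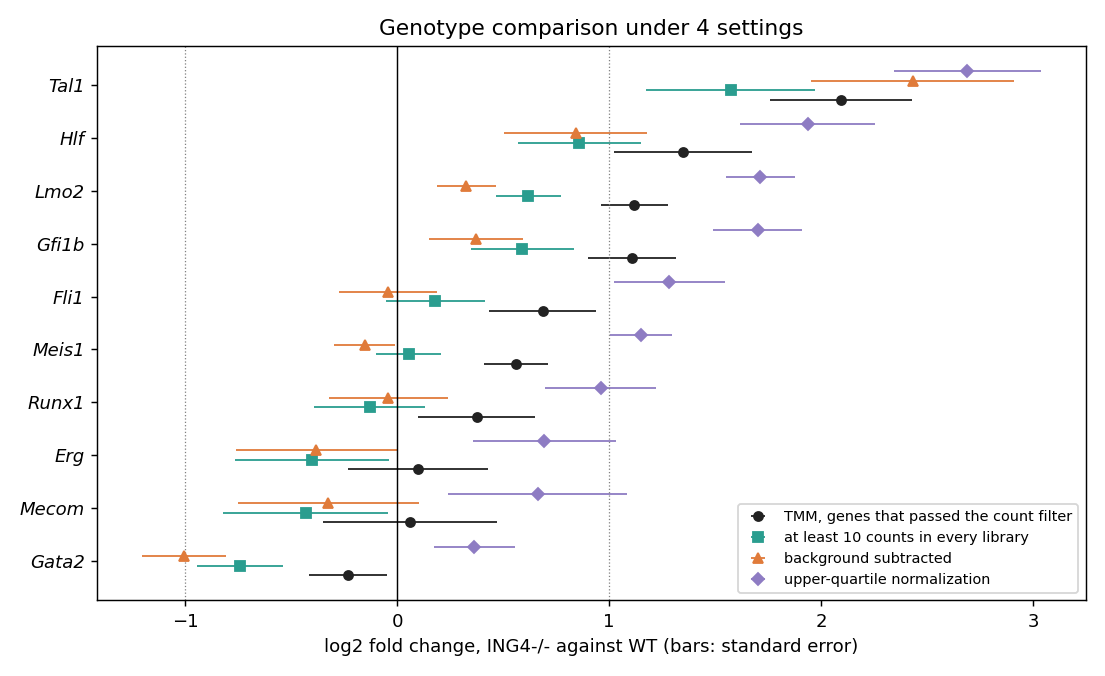
Log2 fold change of ING4-/- against WT (horizontal axis) for the 10 genes under 4 settings of the edgeR test, with bars for the standard error and dotted lines at a log2 change of 1 in either direction. Tal1 lies at 2.09 with TMM, 1.57 among the well-counted genes, 2.43 after background subtraction and 2.69 with upper-quartile normalization, and Gata2 at -0.23, -0.74, -1.01 and 0.36.

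Runx1, the DNA-binding partner of Cbfb, was at 8.65, 8.81 and 10.3 CPM per kb in the WT LT-HSC, ST-HSC and MPP libraries and at 10.9, 8.77 and 16.3 in ING4-/-. The groups overlapped, and the log2 change was 0.37 ± 0.27 (adjusted p = 0.27 in edgeR). Erg was at 9.30, 9.88 and 13.4 in WT and at 10.0, 14.0 and 10.9 in ING4-/-, also overlapping, with a log2 change of 0.10 ± 0.33 (adjusted p = 0.82 in edgeR). Relative to the median of the well-counted genes Erg was lower in all 20 alternatives, by log2 values of -0.63 to -0.30. Its paralog Fli1, with which Erg shares the ETS domain, was at 39.1, 32.1 and 42.5 in WT and at 50.7, 80.8 and 51.3 in ING4-/-. Fli1 groups did not overlap, the ST-HSC library being the highest, and the log2 change was 0.69 ± 0.25 (adjusted p = 0.046 in edgeR), below the fold rule. Megakaryocytes use Fli1. In ING4-/- the summed megakaryocyte markers were also highest in ST-HSCs, at 1154 CPM against 646 in LT-HSCs and 281 in MPPs. Pf4 was at 389 against 62.6 and 65.2 CPM, and Itga2b and Gp1bb were also highest there. Vwf (246, 98.8 and 9.70 CPM in ING4-/- LT-HSCs, ST-HSCs and MPPs), Gp9 (118, 98.2 and 38.9) and Ppbp (24.1, 14.5 and 6.75) were highest in LT-HSCs. The WT sum was highest in ST-HSCs too, at 399 CPM, where WT Fli1 was lowest. The part of megakaryocytes in the Fli1 level was not tested. With population as a block the adjusted p of Fli1 in edgeR was 0.085. After background subtraction Fli1 overlapped between genotypes, with a log2 change of -0.04 ± 0.23 (adjusted p = 0.90 in edgeR).

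Counting the 10 genes by population, 9 were higher in ING4-/- LT-HSCs, 8 in the ST-HSC and 7 in the MPP comparison, with median log2 ratios of 0.62, 0.70 and 0.65. Of the well-counted genes 64.7%, 66.1% and 62.4% were higher in the same comparisons. After background subtraction 6, 5 and 5 of the 10 were higher, and shares over all genes were not computed after subtraction. Before subtraction the medians of the 9673 well-counted genes were 0.55, 0.59 and 0.37. Every ING4-/- library was above every WT library for 6 of the 10 genes before subtraction, beside 35.9% of the well-counted genes. After background subtraction this held for Tal1, Lmo2 and Gfi1b. For Gata2 and Meis1 every ING4-/- library was then below every WT library, as for 13.1% of the well-counted genes before subtraction. For Meis1 the gap was narrow, with 45.84 CPM per kb in ING4-/- MPPs against 46.05 in WT MPPs. After subtraction Tal1, Lmo2, Gfi1b and Hlf were higher in all 3 populations, and Gata2, Meis1 and Erg were lower in all 3. Of the latter, Meis1 in MPPs (log2 ratio -0.0067) and Erg in ST-HSCs (-0.040) lay near 0.

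**Figure D3:**
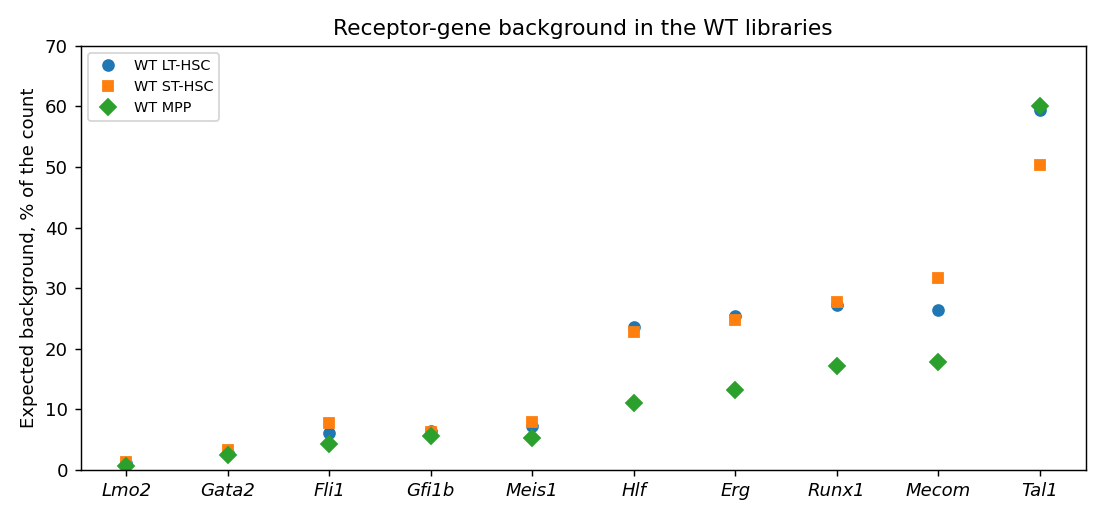
Counts that the receptor density gives for each gene's exon length, as a percent of its WT count (vertical axis), with 1 point per WT library. Tal1 lies at 50.3 to 60.0%, above the other 9 genes.

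Along the stem-to-progenitor order, LT-HSCs were compared with MPPs with genotype in the model, 2 libraries against 2. None of the 10 genes was called by edgeR, and 0 of 36170 genes (0%) were called in all, with 564 genes and 0 of the 10 at an unadjusted p under 0.05. DESeq2 called 346 genes and 0 of the 10. The largest log2 differences, LT-HSC against MPP, were 0.71 ± 0.50 for Mecom, 0.43 ± 0.45 for Tal1 and -0.43 ± 0.29 for Runx1, each with an adjusted p of 1 in edgeR. Without the ING4-/- MPP library the Mecom difference was -0.04. Tal1 was higher in LT-HSCs than MPPs by 0.42 in WT and 0.43 in ING4-/- on the log2 scale, and Gata2 by 0.24 and 0.43.

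The partners of these factors were read from lists of 24 partner, 22 paralog, 32 other stem cell factor and 25 target genes. Of 24 partners tested 5 were higher and 0 lower by edgeR, with a median log2 change of 0.65, and 1 higher and 1 lower of 23 among the well-counted genes, with a median of 0.18. Cbfb, which stabilizes Runx1 on DNA, rose by 1.73 (adjusted p = 0.0051 in edgeR), and Lyl1, the closest relative of Tal1, by 1.70 (adjusted p = 0.018 in edgeR). Tcf12, an E protein partner of Tal1, was at -0.88 (adjusted p = 0.054 in edgeR), or called lower at -1.40 among the well-counted genes (adjusted p = 0.021 in edgeR), and the corepressor Sin3a at -1.06 (adjusted p = 0.17 in edgeR). Among the well-counted genes Lyl1 no longer passed (adjusted p = 0.14 in edgeR), and Cbfb did (adjusted p = 0.044 in edgeR). After background subtraction Lyl1 was at 1.47 and not called (adjusted p = 0.12 in edgeR), and Cbfb at 1.23 and called (adjusted p = 0.032 in edgeR). Of 21 paralogs 2 were higher and 3 lower, with a median of -0.08, and 0 and 1 of 14 well-counted paralogs, with a median of -0.25. Dbp, a PAR bZIP relative of Hlf, was higher by 2.09 (adjusted p = 0.021 in edgeR) and Ets1, a relative of Erg and Fli1, fell by 1.35 on the log2 scale (adjusted p = 0.020 in edgeR), while Prdm16, the relative of Mecom, was at -1.27 (adjusted p = 0.087 in edgeR). Dbp did not pass among the well-counted genes (adjusted p = 0.063 in edgeR), and neither Dbp nor Ets1 passed after background subtraction (adjusted p = 0.054 and 0.14 in edgeR).

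Of 31 other stem cell factors 4 were higher and 2 lower, with a median of 0.32, whereas among the 29 that were well counted 1 was higher and 4 lower, with a median of -0.19. Hhex, a homeobox factor, rose by 1.68 (adjusted p = 0.0042 in edgeR), or 1.01 after background subtraction (adjusted p = 0.052 in edgeR, not called), and Ikzf2, an Ikaros family factor, fell by 1.44 on the log2 scale (adjusted p = 0.027 in edgeR). Bmi1, a Polycomb protein, was at 1.63 (adjusted p = 0.065 in edgeR) and the nuclear receptor Rora at -1.62 (adjusted p = 0.063 in edgeR). Rora was called lower among the well-counted genes, at -2.13 (adjusted p = 0.040 in edgeR). Of 25 targets 6 were higher and 1 lower, with a median of 0.85, and of the 20 well-counted targets 3 were higher and 0 lower, with a median of 0.50. Cdkn1c, the cell cycle inhibitor p57, rose by 3.23 (adjusted p = 0.0017 in edgeR) and by 2.71 (adjusted p = 0.013 in edgeR) among the well-counted genes. Pf4, a platelet chemokine, rose by 2.60 (adjusted p = 0.030 in edgeR), which did not pass among the well-counted genes (adjusted p = 0.087 in edgeR). Nor did it pass after background subtraction, at 1.80 (adjusted p = 0.13 in edgeR). The targets Csf2rb, a cytokine receptor subunit, at -0.79, and Trib2, a pseudokinase, at -0.92, did not pass (adjusted p = 0.19 and 0.29 in edgeR).

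The genes with the pattern most like that of one of the 10 were found by Pearson correlation of log2 CPM over the 6 libraries among 9017 protein-coding genes. They were Cltb for Tal1 (r = 0.998), Nr4a2 for Gata2 (r = 0.989), Tmem63a for Mecom (r = 0.994) and Ech1 for Meis1 (r = 0.999). These points share depth and background by genotype, and the values are descriptions.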

How the data were processed

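RNA was measured by bulk RNA-seq in 6 libraries of total RNA, grouped by the genotype and population in their labels. The authors deposited raw read counts for 49315 genes per library, without normalization and without comparison columns. The build is mm10 per the submitters' processing notes, while the aligner, counter, strand setting and annotation version are not given in the sources used here. Identifiers were matched to GENCODE on GRCm38 (49056 found, 259 not). The 10 genes and all lists were chosen with earlier results of these data known.

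In edgeR 4.0.16 under R 4.3.3, the quasi-likelihood test with TMM and filterByExpr compared 3 ING4-/- with 3 WT libraries, and LT-HSCs with MPPs with genotype as a covariate. Genes were called at a Benjamini-Hochberg adjusted p under 0.05 over all genes tested and an absolute log2 fold change over 1. Each standard error was obtained as |log2 fold change| over the root of the F statistic. DESeq2 1.42.0 was the other count test. Log2 ratios within a population used a prior count of 2. Libraries of a population deviated together from their genotype means (r = 0.143, 0.110 and 0.121 over 9673 genes), so population as a block was fitted as an alternative. No 2 libraries were duplicates within sampling noise.

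Background was the counts per kb of exon over 1431 protein-coding olfactory and vomeronasal receptor genes, multiplied by exon length and subtracted from each count. Filtering and TMM were then repeated on the subtracted counts. Counts have no molecular identifiers, so counting errors cover counting error only. For a gene at 0 the upper limit was set at 3 counts, between 0.0765 CPM (ING4-/- MPPs) and 0.383 CPM (WT LT-HSCs). Scripts were tested on simulated data.

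Named genes were the 10 genes, Ing4, the sort markers and, in each list, the 2 genes with the highest and the 2 with the lowest fold change of those that reached 10 counts in all 6 libraries. The single erythroid, megakaryocyte and endothelial markers were named after their values were seen. Longer ETS and E-box forms than first planned were searched, since GGAA was in 96.0% and CANNTG in 72.3% of all promoters. Alternatives were other normalizations and filters, DESeq2, protein-coding genes, background subtraction, removal of the length trend, thinning, the block and leaving out each library. The combinations with the count minimum were chosen after seeing the data. Protein sequences were not used here.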

Additional observations from a re-analysis of the deposited data

Results flagged for a closer look

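The following ratios, after TMM, went in opposite directions between populations or genotypes. Each rests on 1 library per genotype and population, and none of these differences was tested. For Mecom the log2 ratio of ING4-/- to WT was 1.84 higher in LT-HSCs (0.70) than in MPPs (-1.14) and 1.32 higher in ST-HSCs (0.18) than in MPPs. Equally, the Mecom log2 ratio of LT-HSCs to MPPs was 1.84 higher in ING4-/- (1.67) than in WT (-0.16).

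Runx1 in ING4-/- relative to WT stood at a log2 ratio of 0.34 (LT-HSCs), -0.0064 (ST-HSCs) and 0.66 (MPPs), a difference of 0.35 between LT-HSCs and ST-HSCs and of -0.67 between ST-HSCs and MPPs. For Erg it was 0.11 (LT-HSCs), 0.50 (ST-HSCs) and -0.30 (MPPs), which is 0.41 and 0.80 above MPPs. The log2 ratio of LT-HSCs to MPPs differed in sign between ING4-/- and WT for Lmo2, by 0.33, and for Gfi1b, by -0.42.

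Several of these signs depend on the scaling. After background subtraction Erg was negative in all 3 populations, at -0.25, -0.040 and -0.81, and Mecom in ST-HSCs was at -0.22. With DESeq2 size factors Mecom in ST-HSCs was at -0.28, Runx1 in LT-HSCs at -0.025 and Erg in LT-HSCs at -0.26, and the WT ratio of LT-HSCs to MPPs was 0.036 for Lmo2 and 0.042 for Mecom. The Mecom ratio of ING4-/- to WT was positive in LT-HSCs and negative in MPPs under all 3 scalings, and Gfi1b kept its opposite signs between genotypes under all 3.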

How the results depend on the processing

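Tal1 was called higher by genotype in all 20 alternatives, and no other gene of the 10 was. The number of genes called (by genotype, 20041) was 1739 with the minimum of 10 counts, 8637 with protein-coding genes only, 8756 with background subtraction, 793 with background subtraction and the minimum, 1718 with the replicate block and the minimum, 1608 with thinning and the minimum. The number of the 10 genes called (by genotype, 4) was 2 with DESeq2 size factors, the DESeq2 test, protein-coding genes only, background subtraction, thinning and background subtraction and the minimum, 1 with the minimum of 10 counts, the replicate block and the minimum and thinning and the minimum. It was 6 with upper-quartile normalization, where 21649 genes were called, and 6 with no minimum fold, where 20591 genes were called. For single genes mainly the settings that turned the sign are listed. Meis1 (by genotype, log2 change 0.56) was -0.15 with background subtraction, -0.25 with background subtraction and the minimum. It reached 1.15 at the highest of the 20 alternatives and was called higher in 3 of them. Mecom (by genotype, log2 change 0.060) was -0.28 with DESeq2 size factors, the DESeq2 test and protein-coding genes only, -0.43 with the minimum of 10 counts, -0.33 with background subtraction, -0.12 with thinning, -0.078 with the replicate block, -0.41 with background subtraction and the minimum, -0.59 with the replicate block and the minimum, -0.45 with thinning and the minimum and ranged from -0.39 to 0.41 with 1 library left out. Gata2 (by genotype, log2 change -0.23) was 0.36 with upper-quartile normalization. Runx1 (by genotype, log2 change 0.37) was -0.13 with the minimum of 10 counts and background subtraction and the minimum, -0.043 with background subtraction, -0.18 with the replicate block and the minimum, -0.16 with thinning and the minimum. Erg (by genotype, log2 change 0.097) was -0.25 with DESeq2 size factors, the DESeq2 test and protein-coding genes only, -0.40 with the minimum of 10 counts, -0.38 with background subtraction, -0.54 with the length trend removed, -0.10 with thinning, -0.46 with background subtraction and the minimum, -0.41 with the replicate block and the minimum, -0.44 with thinning and the minimum and ranged from -0.038 to 0.22 with 1 library left out. Fli1 (by genotype, log2 change 0.69) was -0.044 with background subtraction, -0.14 with background subtraction and the minimum. The number of genes called (LT-HSC against MPP, 0) was 346 with the DESeq2 test, 2 with the minimum of 10 counts, 1 with background subtraction and the minimum, 4 with thinning and the minimum. Meis1 (LT-HSC against MPP, log2 change -0.12) was 0.031 with DESeq2 size factors and the DESeq2 test, 0.0021 with the minimum of 10 counts, 0.042 with background subtraction and the minimum and ranged from -0.14 to 0.0052 with 1 library left out. Hlf (LT-HSC against MPP, log2 change -0.38) ranged from -0.78 to 0.095 with 1 library left out. Mecom (LT-HSC against MPP, log2 change 0.71) ranged from -0.036 to 1.59 with 1 library left out. Lmo2 (LT-HSC against MPP, log2 change -0.013) was 0.15 with DESeq2 size factors, the DESeq2 test and the length trend removed, 0.10 with upper-quartile normalization, 0.12 with the minimum of 10 counts and thinning and the minimum, 0.051 with protein-coding genes only, 0.058 with background subtraction, 0.052 with no replicate block, 0.18 with background subtraction and the minimum and ranged from -0.20 to 0.22 with 1 library left out. Gfi1b (LT-HSC against MPP, log2 change -0.032) was 0.12 with DESeq2 size factors, the DESeq2 test and the length trend removed, 0.086 with upper-quartile normalization, 0.091 with the minimum of 10 counts, 0.026 with protein-coding genes only, 0.024 with background subtraction, 0.13 with background subtraction and the minimum, 0.096 with thinning and the minimum and ranged from -0.16 to 0.13 with 1 library left out. Erg (LT-HSC against MPP, log2 change -0.34) ranged from -0.63 to 0.015 with 1 library left out. Fli1 (LT-HSC against MPP, log2 change -0.075) was 0.089 with DESeq2 size factors and the DESeq2 test, 0.029 with upper-quartile normalization, 0.061 with the minimum of 10 counts, 0.070 with the length trend removed, 0.11 with background subtraction and the minimum, 0.065 with thinning and the minimum and ranged from -0.34 to 0.28 with 1 library left out. With 1 library left out, 3 to 4 of the 10 were called by genotype, 3 without the WT ST-HSC library (Lmo2 at 0.97) and 3 without the WT MPP library (Gfi1b at 0.90). The replicate block (population) kept the number of the 10 called at 4, with 18879 genes called. The cause of these changes was not tested. The WT libraries were the shallower ones and held the higher background.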
